A study of Canis lupus familiaris with 222 samples.

Results

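The 100 genes described here are those with the deepest loss of RNA between normal canine mammary tissue and the tumor of the same dog. They were selected on measured values: over the 64 dogs with both libraries, the mean of log2(FPKM+1) in the tumor minus that in the normal tissue was taken for each of the 13611 Ensembl gene identifiers with a mean FPKM (RNA fragments scaled by transcript length and by library size) of at least 1 in their libraries. The 100 smallest differences were kept, after 2 identifiers (differences of -4.96 and -4.07) had been set aside. They were drawn from 24580 identifiers in the table, of which 3857 were at 0 in every library.

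RNA-seq was performed on poly(A) RNA of 158 canine mammary tumors (CMTs) and 64 adjacent normal mammary tissues, each normal with the tumor of its own dog beside it, so that 94 tumors had no normal library. The animals were female pet dogs of many breeds, aged 2 to 19 years with a median of 12, sampled at surgery in 2016, 2017 or 2018, and the pieces were bulk tissue. Histology gave 113 malignant tumors (59 simple carcinomas, 33 complex carcinomas, 13 carcinomas in benign mixed tumors and 8 rare histologies) and 45 benign tumors (18 simple adenomas, 17 complex adenomas and 10 benign mixed tumors). By the labels 49 of these dogs were neutered and most others intact, 24 tumors were estrogen receptor (ER) negative and most others ER positive, and malignant tumors carried grade 1, 2 or 3. A library had between 13191 and 17648 identifiers above 0, and the tumor library with the fewest was a simple carcinoma that stood below the next lowest, at 15583. The highest correlation between any pair of libraries was 0.967.

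The mammary gland is a tree of ducts and milk-forming alveoli lined by luminal epithelial cells over contractile myoepithelial cells, set in fibrous and fatty stroma with blood vessels, nerves and immune cells. Simple CMTs consist of luminal-type epithelium, complex CMTs also hold proliferating myoepithelial cells, and mixed CMTs contain cartilage or bone. A piece of gland beside a tumor can hold any of these compartments, and in the bitch the secretory epithelium expands and regresses with each estrous cycle. No table used here pairs the canine identifiers with gene names, so the genes are given as identifiers, the roles of the members are not named, and the tissue label was not checked against cell type markers. In bulk tissue, fewer cells of a type and less RNA per cell cannot be told apart.

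The selected differences ranged from -4.29 to -2.11 with a median of -2.60 on the log2 scale, against a median of 0.08 over the 13611 identifiers. The last member stood at -2.11 and the first identifier outside the list at -2.10. The most reduced member, ENSCAFG00000013694, had in the normal tissues a lowest FPKM of 0.125, a median of 104 and a highest of 5125. In the tumors of the same dogs its FPKM had a lowest value of 0, a median of 0.490 and a highest of 1067, and it was lower in the tumor in 56 of 64 dogs. ENSCAFG00000018828, the next, went from a median of 83.03 FPKM (range 0.184 to 1901) in the normals to 0.581 (range 0.0418 to 1677) in the paired tumors and was lower in 58 of 64 dogs. The ranges of both tissues overlapped for both genes, and a few tumors carried levels within the upper range of the normals.

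The loss was not uniform over dogs. Across the members, between 37 and 61 of the 64 dogs had the lower value in the tumor, with 41 members lower in 55 or more dogs and 6 members lower in under 40. The members also varied more than most genes among the normals themselves: their SD of log2(FPKM+1) over the 64 normals had a median of 2.91, against 0.55 for all identifiers. The rule used these same normal values, so the wider spread of the members is partly set by the selection. Of the 100 members, 45 were listed at 0 in at least 1 normal tissue.

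All 100 members were called lower in the paired fit of tumor against normal tissue, where 3.53% of the 14707 identifiers tested were called lower and 1.58% higher (limma, Benjamini-Hochberg adjusted p under 0.05, with at least 1 log2 unit between the means). The list was chosen on this contrast, and its count therefore adds nothing to the selection.

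The normal tissues separated the members into 2 large blocks. Average-linkage clustering of their correlations over the 64 normals placed 47 members in group A and 47 in group B, and left 6 in smaller sets. The median pairwise Pearson r was 0.65 within group A and 0.89 within group B, but 0.24 between a member of A and a member of B. Over all pairs of the 13611 identifiers the median was 0.08, with 5% of pairs below -0.39 and 5% above 0.58. No pair within A or within B had a negative r in the normals. The groups were cut from these same correlations, so a higher r within than between them is partly set by the clustering. These are descriptions over libraries that share tissue composition and normalization.

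**Figure D1:**
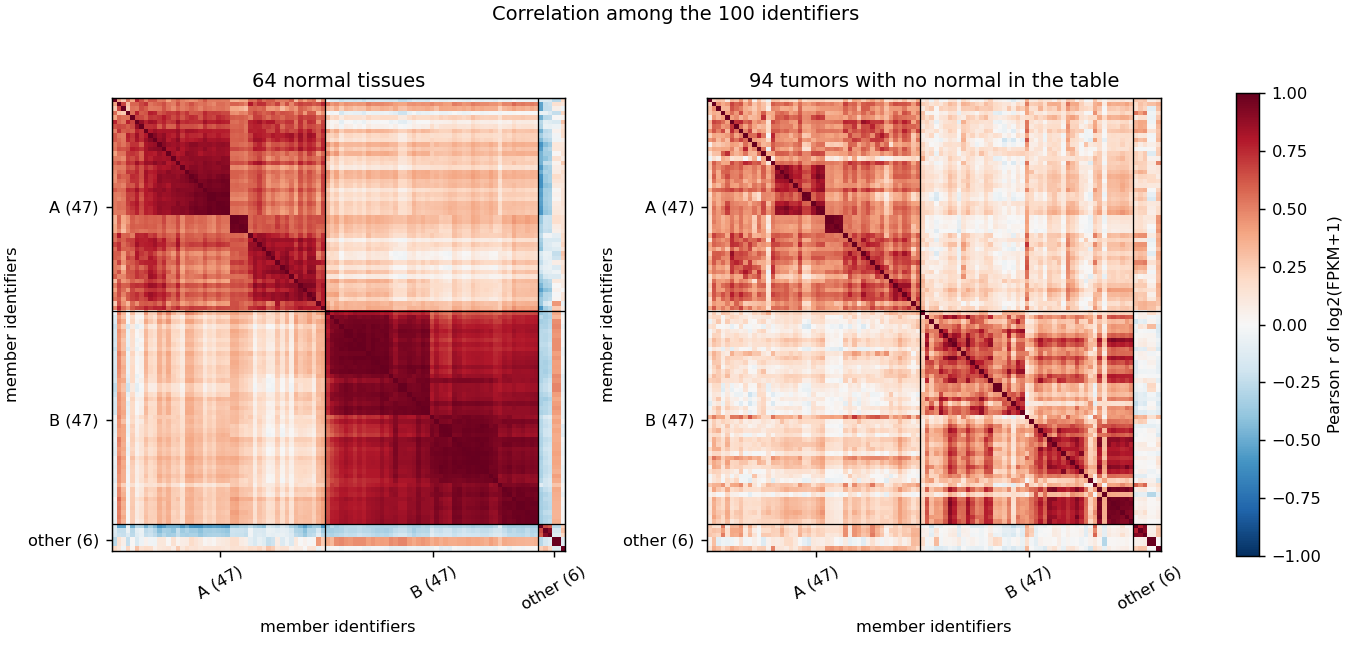
Pearson r of log2(FPKM+1) between each pair of the 100 identifiers, in the 64 normals (left) and in the 94 tumors with no normal library (right), in the same order on both axes with the number of identifiers per group in brackets. The blocks of groups A (median r 0.65) and B (median r 0.89) stand out in the normals. They are paler in these 94 tumors, where the medians were 0.50 and 0.48.

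By surgery year the same medians were taken as a description, since the groups had been cut from these same normals. Within group A the median r was 0.73 over the 13 normals of 2016, 0.54 over the 40 of 2017 and 0.66 over the 11 of 2018. Within group B it was 0.88, 0.89 and 0.89 in the same order, and between the groups it was 0.17, 0.11 and 0.44. Tumors that had not entered the selection gave lower correlations: over the 94 unpaired tumors the median r was 0.50 within A, 0.48 within B and 0.16 between A and B. Spearman's rho over the same tumors had a median of 0.47 within A and 0.18 within B. The 64 paired tumors, which had entered the selection, stood nearer the normals, with a median r of 0.64 within A and 0.85 within B. Between A and B it was 0.39 in the paired tumors. Their median rho was 0.50 within A and 0.38 within B, against 0.64 and 0.84 in the normals.

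No member of group A had a median FPKM under 1 in the normals, although 6 of its members were at 0 in at least 1 normal. The medians of its members there ran from 4.98 to 2148 FPKM. The member closest to the rest of the group, ENSCAFG00000007893 (r = 0.94 with the mean of the other members), had a lowest FPKM of 2.32, a median of 148.1 and a highest of 1635 in the normals. In the unpaired tumors the same gene had a lowest value of 0.485, a median of 18.6 and a highest of 830 FPKM. The mean log2(FPKM+1) of the 47 members, used below as the score of the group, ran from 1.04 to 8.26 in the normals with a median of 5.56, and from 0.78 to 6.63 in the unpaired tumors with a median of 2.08. Together the members of A took a median of 1.05% of all FPKM of a normal tissue, and up to 4.55%, against a median of 0.1119% in the 158 tumors.

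Group B was near 0 in many normals and spread over higher levels in the others. Its score had 29 of 64 normals below 1 and 22 at 6 or above. The widest gap between neighboring scores, picked from these values, lay from 1.17 to 2.87, with 33 normals above it. In the steps of 1 from 2 to 6 there were 1, 3, 3 and 4 normals. The member closest to the rest, ENSCAFG00000023728 (r = 0.99), ranged in the normals from 0.0394 to 1033 FPKM around a median of 11.4. In 94 unpaired tumors its median was 0.703 FPKM, with a lowest value of 0 and a highest of 1520. The medians of the B members in the normals ran from 0.292 to 81.1 FPKM, and 15 of the 47 stood under 1. In the unpaired tumors 42 of the 47 had a median under 1 FPKM, against 14 of 47 in group A. Together the B members reached 5.405% of all FPKM in 1 normal tissue, with a median of 0.123% in the normals and 0.00529% in the tumors.

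The scores of A and B were only loosely related over the 64 normals, with Pearson's r = 0.30 and Spearman's rho = 0.21, and r = 0.25 without the 2 normals farthest from the median score of A. Age of the dog had an r of 0.04 with A and 0.09 with B (rho = 0.05 and 0.08). Without the 2 dogs farthest from the median age, r was 0.05 for both. Other genes ran with the groups: among the 13511 identifiers outside the list, 10 correlated at r of 0.9 or above with the score of A in the normals and 72 with that of B. All of these had a mean below 0 in the paired difference, as had 39.0% of all identifiers outside the list. At r of 0.8 or above the shares below 0 were 98.8% for A and 98.1% for B, and at r of 0.7 or above 95.4% and 91.5%. The paired difference holds the values of these same normals, so the shares are descriptions.

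**Figure D2:**
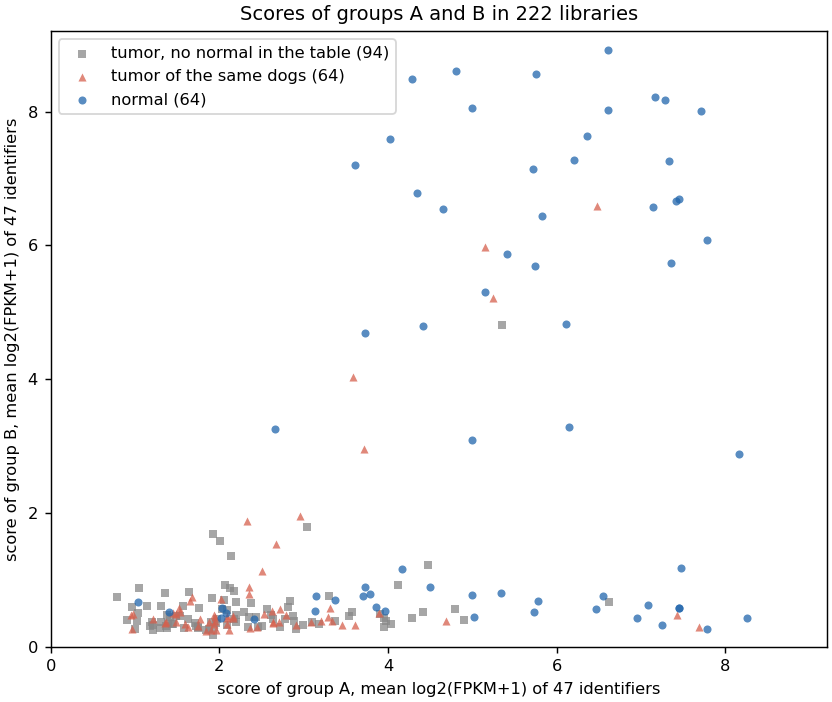
Score of group A (horizontal) against score of group B (vertical), each the mean log2(FPKM+1) of 47 identifiers, for the 64 normals, the 64 tumors of the same dogs and the 94 tumors with no normal library. The normals spread over the whole width of A and have their widest gap in B from 1.17 to 2.87, and most tumors lie at the lower left.

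Of the 6 members outside both groups, 3 formed a set of their own (ENSCAFG00000002889, ENSCAFG00000019754 and ENSCAFG00000019755, named after their values were seen) and were among the most abundant RNAs of some tissues. ENSCAFG00000019754 ranged in the normals from 0 to 88901 FPKM around a median of 226, and in the unpaired tumors from 0 to 48305 around a median of 59.2. The 3 genes took up to 21.4% of all FPKM of 1 normal tissue, with a median of 0.0959%. Unlike the others they ran against groups A and B in the normals: all 141 pairs with A members had a negative r (median -0.30), as had all 141 pairs with B members (median -0.27). In the unpaired tumors the sign with A was turned, with a median of 0.24 and 2 of 141 pairs below 0. The mean over the 3 was lower in the tumor in 45 of 64 dogs.

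ENSCAFG00000028753 and a second identifier carried the same values in every library, so the 100 identifiers hold 99 distinct profiles. That profile was high in all normals, from 114 to 57928 FPKM with a median of 5002, and was lower in the tumor in 51 of 64 dogs, while its highest unpaired tumor reached 177260 FPKM. The remaining member, ENSCAFG00000004507, stood alone, with a median of 1.02 FPKM and a highest value of 1359 FPKM in the normals.

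Between paired tissues the score of A was lower in the tumor in 59 of 64 dogs and that of B in 57 of 64. For B, 31 of the normals stood below the gap, at a score of 1.17 or less, so that many decreases were small. Of the 33 dogs with a normal above the gap, 4 had a tumor above it, as had 1 of the 31 others. The mean difference was -2.71 ± 2.08 (SD, n = 64 dogs) for A, close to its median of -2.63. For B the mean was -2.80 ± 3.17 (SD, n = 64 dogs) and the median -0.56, so that mean and median were far apart in a group that was close to 0 in many normals. The largest decreases were -6.48 for A and -8.53 for B. A tumor's score was weakly related to that of the dog's own normal tissue, with r = 0.19 for A and 0.22 for B over the 64 pairs.

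The 94 unpaired tumors, which were not used for the selection, lay as low as the paired ones. The members' mean in the unpaired tumors minus that in the normals ranged from -4.44 to -1.72 with a median of -2.85, against a median of 0.07 over all identifiers. Unpaired minus paired tumors gave a median of -0.26 for the members and -0.01 for all identifiers. The first of these differences shares its normal libraries with the selection.

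The members differed among the normals by the year of surgery. The score of A had a median of 3.14 in the 13 normals of 2016 (range 1.04 to 7.45), 5.97 in the 40 of 2017 (2.41 to 8.26) and 5.41 in the 11 of 2018 (3.14 to 7.71). The score of B had medians of 0.58, 2.02 and 7.58 in the same order, and stood above 2.87 in 4 of 13, 20 of 40 and 9 of 11 normals. In the fit of the normals of 2016 against those of 2017 and 2018, a comparison added after these scores were seen, 38 of the 100 members were called lower in 2016 and 0 higher, where 3.59% of the 14609 identifiers tested were called lower and 0.732% higher. The calls comprised 34 of the 47 members of A and 4 of the 47 of B, and the log2 difference had a median of -2.10 over the members against -0.05 over all identifiers tested. The members had been chosen with these normals in the paired difference, and 51 of the 64 dogs were operated on in 2017 or 2018. The direction, the excess of calls over all identifiers and the members' p-values in this comparison are therefore partly set by the selection.

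The largest of these differences, also the largest decrease of all identifiers tested, was that of ENSCAFG00000032731 in group A. Its FPKM in the 13 normals of 2016 had a lowest value of 0.418, a median of 44.9 and a highest of 629, against 51.7, 929 and 12498 in the 51 later normals. The groups overlapped, and the log2 difference was -4.30 ± 0.58 (SE), with an adjusted p of 7.06e-07 in limma. ENSCAFG00000029904, also of group A, had medians of 12.7 FPKM (range 0.352 to 349) and 235 FPKM (range 1.80 to 2725), a log2 difference of -3.80 ± 0.73 (SE) and an adjusted p of 0.000187 in limma. The set of 3 abundant genes stood the other way, with log2 differences of 1.05 to 3.34 and no call.

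Year of surgery is no sequencing batch in the labels, and other features moved with it. Of the normals of 2016, 7 of 13 lay beside a benign tumor, as did 7 of 40 in 2017 and 2 of 11 in 2018. The median number of identifiers above 0 was 17201 in the normals of 2016, 17000 in 2017 and 16956 in 2018, and the median of the summed FPKM was 672355, 693780 and 806470. The part of these in the differences was not tested.

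The values by year that follow are descriptions, since the paired difference over these same dogs chose the members and 51 of the 64 dogs were of 2017 or 2018. Within each year all 100 members had a mean below 0. The median over the members was -1.65 in the 13 dogs of 2016, -2.66 in the 40 of 2017 and -3.84 in the 11 of 2018. For group A the medians over its members were -1.65, -3.07 and -2.30, and for group B they were -1.51, -2.31 and -5.53. All 94 members of A and B had a smaller mean loss in 2016 than in 2017 and 2018, while 5 of the 6 other members had a larger one. In a fit of the paired difference in 2016 against the later years, also added after the scores were seen, 0 of the 100 members passed in either direction with limma. An unadjusted p under 0.05 was reached by 24 members and by 9.95% of all identifiers tested. Of all identifiers tested, 0.0204% were called with a higher difference and 0% with a lower one.

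**Figure D3:**
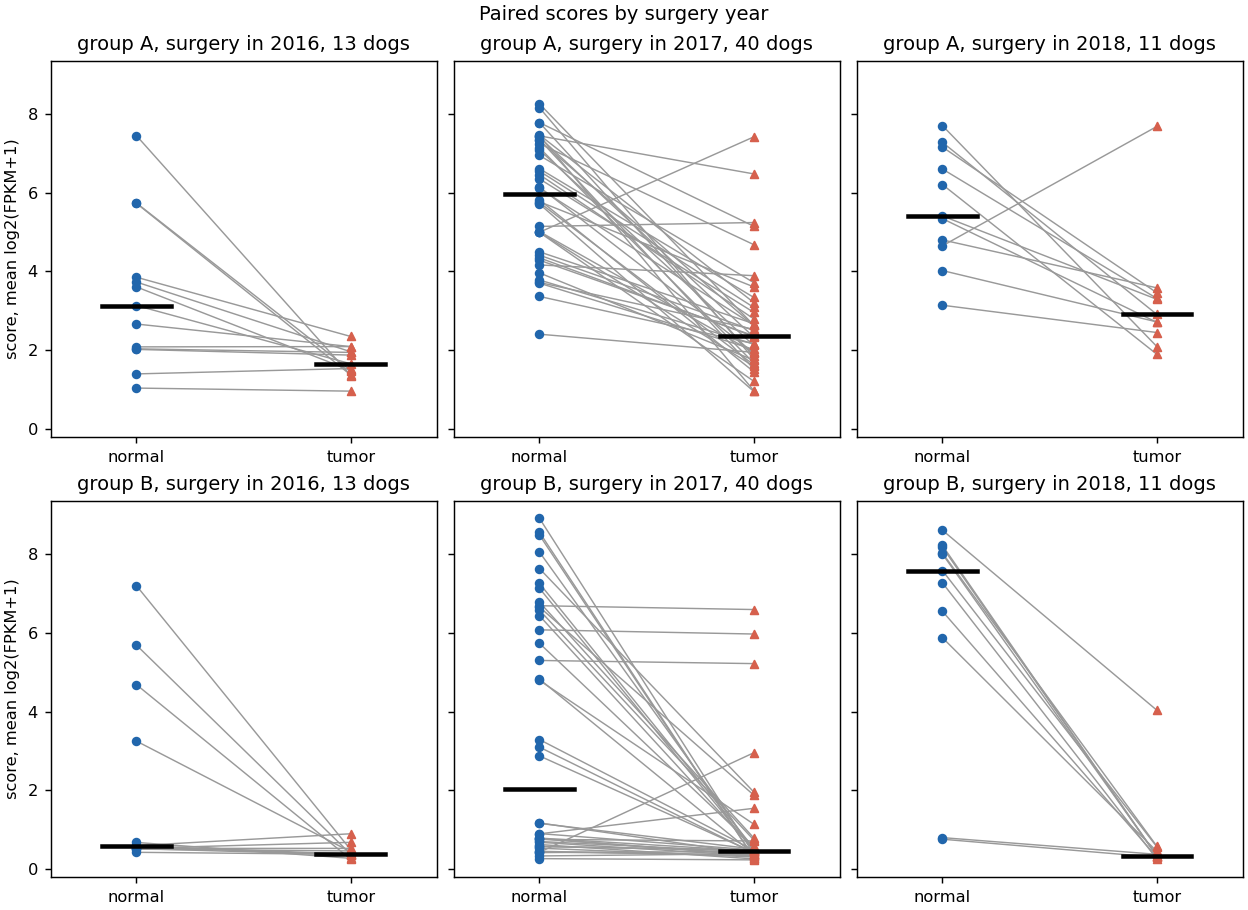
Scores (mean log2(FPKM+1)) of groups A (top) and B (bottom) in the normal tissue and the tumor of each dog, joined by a line, by year of surgery, with the median as a black bar. In 2016 the median of A was 3.14 in the normals and 1.65 in the tumors and that of B 0.58 and 0.38, whereas in 2018 the medians of B were 7.58 and 0.34.

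**Figure D4:**
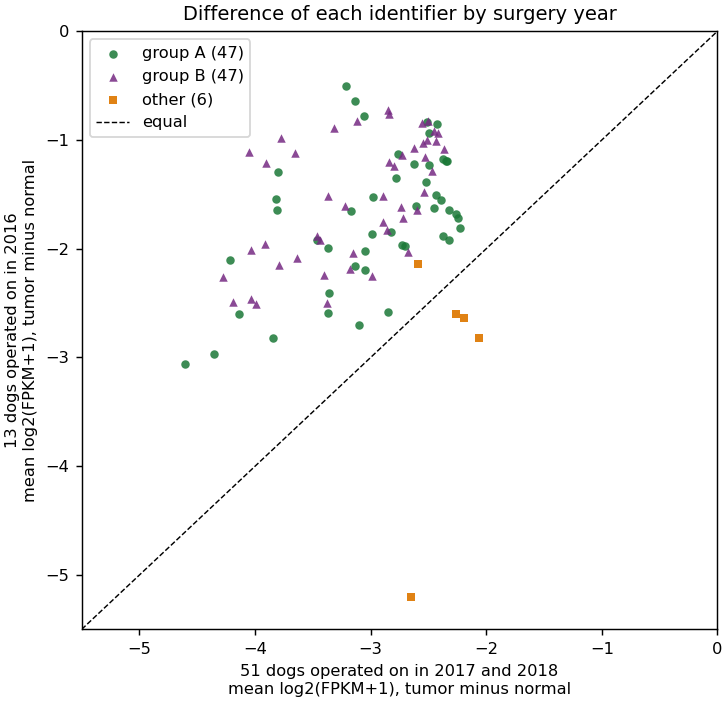
Mean difference in log2(FPKM+1), tumor minus normal, of each of the 100 identifiers in the 51 dogs operated on in 2017 and 2018 (horizontal) and in the 13 dogs operated on in 2016 (vertical), with the line of equality dashed. All 100 points lie below 0 on both axes, and those of groups A and B lie above the line, on values that also chose the members.

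The number of tumors that kept a group depended on the limit. A limit at the 10th percentile of the normals (a score of 2.81 for A) was met by 44 of 158 tumors for A, 26 of them unpaired. At the median of the normals, a limit added after the scores were seen, 4 tumors remained for A and 5 for B, of which 1 unpaired tumor each. For B the 10th percentile is a score of 0.47, a level near 0, and the 67 of 158 tumors that met it cannot be read as expressing the group. Above the gap in the normals, at 2.87 or more, stood 6 of 158 tumors for B.

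The tumors above the median of the normals were of several classes. For A they were a grade 1 simple carcinoma without a normal library (CMT-259, score 6.63), a grade 1 simple carcinoma (CMT-606, 6.48), a grade 3 simple carcinoma (CMT-613, 7.42) and a grade 2 carcinoma in a benign mixed tumor (CMT-756, 7.69). In CMT-613 and CMT-756 the tumor exceeded the dog's own normal in A, by 2.42 and 3.03, while its B score was 0.47 and 0.30 against 8.05 and 6.55 in the normal. In these 2 dogs the groups thus moved in opposite directions.

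For B they were a grade 2 complex carcinoma (CMT-308, 5.97), a simple adenoma (CMT-480, 5.22), a grade 1 carcinoma in a benign mixed tumor without a normal library (CMT-505, 4.81), CMT-606 (6.59) and a grade 3 simple carcinoma (CMT-743, 4.03). In CMT-308, CMT-480 and CMT-606 the B scores of the own normals were 6.08, 5.30 and 6.69, within 0.11 of those of the tumors. CMT-480 and CMT-606 also had the highest and the third highest correlation of tumor with own normal tissue over the 13511 identifiers outside the list, at r = 0.96 for both, where the median over the 64 pairs was 0.87 and CMT-308 had 0.87. Whether these tumor pieces also held normal tissue was not tested. In CMT-743 the score went from 8.61 in the normal to 4.03 in the tumor. A sixth tumor, that of CMT-344, stood at 2.95, above the 0.43 of its own normal. Only the tumor of CMT-606 exceeded the median of the normals in both groups.

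By diagnosis, the 10th percentile of the normals in A was met by 17 of 59 simple carcinomas, 9 of 33 complex carcinomas, 3 of 13 carcinomas in benign mixed tumors, 4 of 18 simple adenomas, 6 of 17 complex adenomas, 3 of 10 benign mixed tumors and 2 of 8 rare histologies. By behavior these were 31 of 113 malignant and 13 of 45 benign tumors, and by grade 18 of 62, 6 of 23 and 7 of 28 for grades 1, 2 and 3. Over paired and unpaired tumors together, the median score of A differed little between the classes, from 2.02 in benign mixed tumors to 2.43 in rare histologies. In the unpaired tumors alone the class medians spread more widely and in another order. They ran from 1.30 in carcinomas in benign mixed tumors (n = 7) to 2.46 in complex carcinomas (n = 14). Rare histologies stood at 1.93 there (n = 5).

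**Figure D5:**
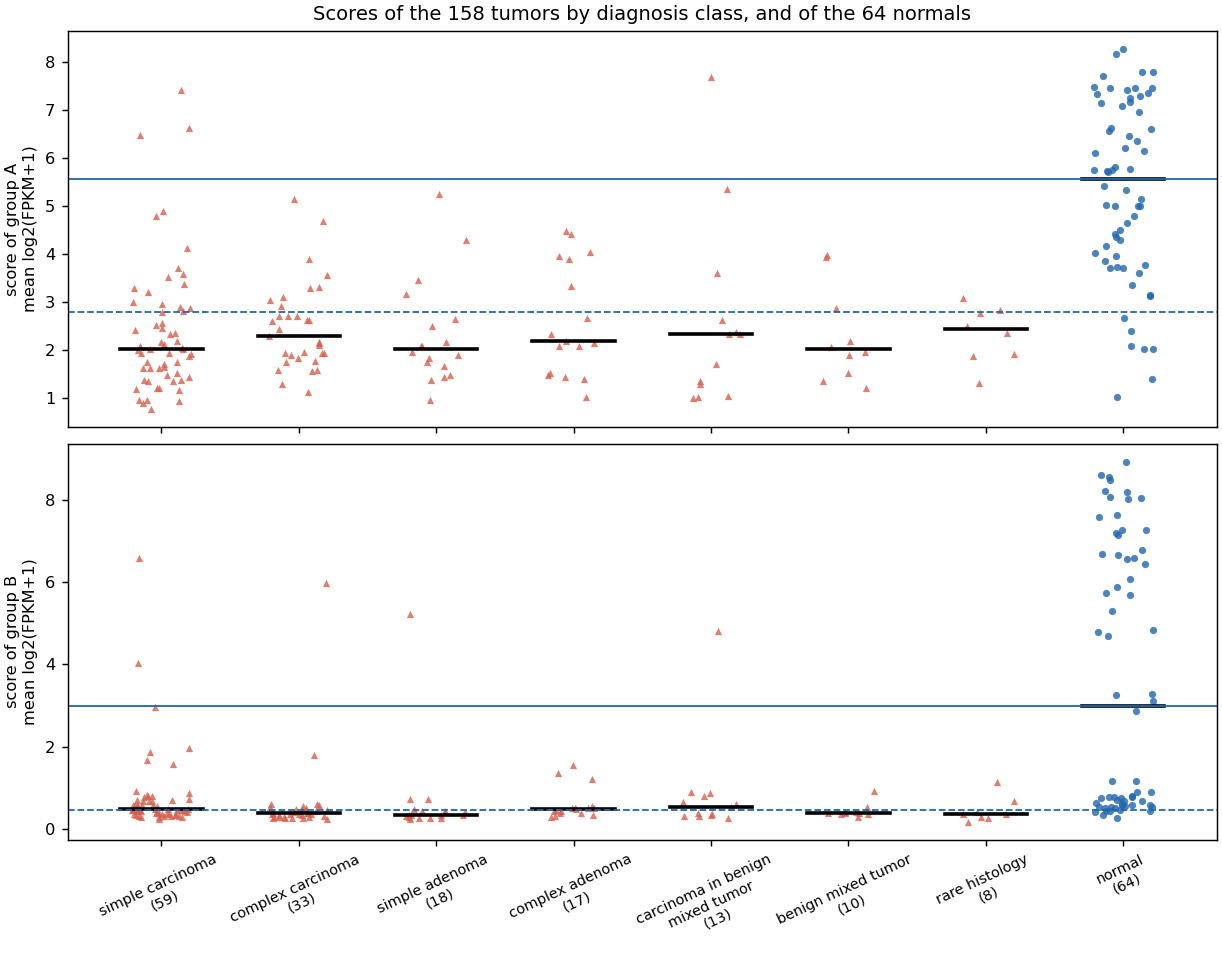
Scores (mean log2(FPKM+1)) of group A (top) and group B (bottom) in the 158 tumors by diagnosis class and in the 64 normals, with the number of libraries in brackets, class medians as black bars, and the median (solid) and 10th percentile (dashed) of the normals as lines. Class medians of A lie between 2.02 and 2.43, below the dashed line at 2.81, and single tumors of several classes lie above the solid line at 5.56.

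Whether the residual level of the members differed between tumor types was tested in the unpaired tumors, whose values had no part in the selection. Malignant tumors (n = 65) were compared with benign tumors (n = 29). A mean FPKM of at least 0.5 in these tumors was reached by 81 of the 100 members, 47 of A but 28 of B, because much of B was close to 0. None of the 81 was called (limma), nor was any other gene: 0% of the 14487 identifiers were called in either direction. The median log2 difference, malignant minus benign, was -0.25 for the tested members of A (0.03 over all 158 tumors), 0.16 for those of B and -0.02 over all identifiers, and 12 of the 81 members had an unadjusted p under 0.05, as had 11.4% of all identifiers.

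The set of 3 abundant genes included the largest decrease of all identifiers tested in that comparison, without passing the adjustment. ENSCAFG00000019755 had a lowest FPKM of 0, a median of 14.0 and a highest of 11877 in the 65 malignant tumors. In the 29 benign tumors its FPKM was 0.761 at the lowest, 323 at the median and 58687 at the highest. The log2 difference was -3.10 ± 0.85 (SE) with an adjusted p of 0.166 in limma, and the other two stood at -2.72 ± 0.89 (adjusted p = 0.197, limma) and -2.50 ± 0.83 (adjusted p = 0.198, limma). Over all 158 tumors, including those used in the selection, 3 of 95 members tested were called lower in malignant tumors and 0 higher. None of the 3 was in A or B, and over all 14585 identifiers 18 were called lower and 1 higher.

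Simple (n = 39) and complex (n = 14) carcinomas gave no call among the 74 members tested in limma, with 2 at an unadjusted p under 0.05 against 6.63% of all identifiers, and 0% of the 14411 identifiers were called in either direction. The median log2 difference, simple minus complex, was -0.10 for A and 0.00 for B against -0.10 over all identifiers, and centring each library on its median moved these medians to 0.04 for A, 0.14 for B and 0.04 over all identifiers.

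Grade 3 (n = 16) and grade 1 (n = 39) malignant tumors, of which 3 and 1 were rare histologies such as sarcomas, differed in 3 of the 87 members tested, 2 lower and 1 higher in grade 3, where 1.07% of the 14451 identifiers were called lower and 0.699% higher. The members' shares, 2 of 87 and 1 of 87, were thus near the background. ENSCAFG00000015323 in group A had a median of 0.494 FPKM (range 0.0586 to 5.12) in grade 3 and 2.55 FPKM (range 0.247 to 55.3) in grade 1, a log2 difference of -1.20 ± 0.36 (SE) with an adjusted p of 0.0368 in limma. ENSCAFG00000032584, also in A, had medians of 0.312 and 1.67 FPKM and a log2 difference of -1.14 ± 0.35 (SE, adjusted p = 0.0406 in limma). ENSCAFG00000007233 in group B went the other way, with a median of 2.88 FPKM (range 0 to 37.0) in grade 3 and 0.604 FPKM (range 0 to 20.3) in grade 1, a log2 difference of 1.18 ± 0.37 (SE) and an adjusted p of 0.0438 in limma. The ranges overlapped in all 3 genes, and the 3 calls were lost when all identifiers above 0 were tested. Without the rare histologies, an alternative added after the data were seen, 2 members were called, 1 in each direction.

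ER negative (n = 13) and ER positive (n = 77) tumors differed in 1 of the 82 members tested, where 0.235% of the 14462 identifiers were called lower and 0.0484% higher in ER negative tumors. This was ENSCAFG00000005096 in group A, with a median of 1.15 FPKM (range 0.477 to 7.84) in ER negative and 4.98 FPKM (range 0.467 to 121) in ER positive tumors. The log2 difference was -1.33 ± 0.37 (SE) with an adjusted p of 0.0407 in limma. Of the 47 members of A, 43 had a difference below 0, as had 66.2% of all identifiers, and the members of A are no separate observations, since their median pairwise r over the 94 unpaired tumors was 0.50. Their median was -0.58 against -0.10 over all identifiers, which became -0.42 against 0.05 with libraries centred, and 0.01 for A over all 158 tumors. The call was lost over all 158 tumors and when all identifiers above 0 were tested.

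Among the normal tissues, those of neutered dogs (n = 22) and intact dogs (n = 42) gave no call among the 100 members in limma, with 6 at an unadjusted p under 0.05 against 4.96% of all identifiers, and 0% of the 14609 identifiers were called in either direction. The median log2 difference, neutered minus intact, was 0.53 over the members and 0.06 over all identifiers. Within the set of 3, ENSCAFG00000002889 had the largest decrease of all identifiers tested, from a median of 673 FPKM (range 0.341 to 40978) in intact dogs to 9.25 FPKM (range 0.455 to 27753) in neutered dogs. Its log2 difference of -3.94 ± 1.16 (SE) did not pass the adjustment, with an adjusted p of 0.897 in limma. The normals compared here had entered the selection. Over them this gene had an SD of log2(FPKM+1) of 4.86, the highest of the 100 members. Its rank among all identifiers is therefore a description.

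Normals beside malignant tumors (n = 48) and beside benign tumors (n = 16) likewise gave no call among the 100 members in limma, and 0% of the 14609 identifiers were called in either direction. An unadjusted p under 0.05 was reached by 11 of the 47 members of A and 0 of the 47 of B, against 10.0% of all identifiers. The difference was above 0 in 43 members of A and below 0 in all 47 of B, where 59.2% of all identifiers were below 0. Members of a group are no separate observations, with a median pairwise r over the normals of 0.65 in A and 0.89 in B. These normals, too, had entered the selection. The median log2 difference, beside malignant minus beside benign, was 0.62 for A and -1.07 for B. With surgery year in the model these became 0.00 and -1.99. The paired difference itself was compared between the same 48 and 16 dogs, with 0 of 100 members called in limma, 0 at an unadjusted p under 0.05 against 5.06% of all identifiers, and 0% of the 14707 identifiers called in either direction. Its median, malignant minus benign, was -0.14 for A and 0.95 for B against 0.08 over all identifiers. With surgery year in the model it was 0.13 and 1.85 against 0.09. The mean of these same differences chose the members, and 48 of the dogs had a malignant tumor, so these values are descriptions.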

How the data were processed

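Per the labels and the methods of the study, the authors mapped reads of poly(A) RNA libraries to CanFam3.1 with TopHat 2.0.9 and computed FPKM values with Cufflinks 2.1.1 and Ensembl annotation. The deposited table holds FPKM per identifier and library. It holds no read counts, so the depth of a value is unknown, no counting interval is given, and the number of identifiers above 0 stands in for depth. FPKM values are relative within a library, so that a few abundant RNAs lower the values of the rest. Samples were grouped by the GEO labels, and tumor and normal tissue were paired by the dog they came from: deviations from the group means correlated at 0.20 on average over the 64 pairs (range -0.25 to 0.67).

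The members and comparisons were chosen with earlier results of these data known. A pseudocount of 1 was added before taking log2, so that differences of low genes are understated. Groups were taken from average linkage on 1 minus Pearson's r over the 64 normals, cut at 0.5, with groups of at least 5 lettered. Fits used limma 3.58.1 in R 4.3.3 (trended empirical Bayes, two-sided) over every identifier whose FPKM averaged 0.5 or more in the libraries compared, with Benjamini-Hochberg adjustment over all of them and dog as a block for tumor against normal. Calls required at least 1 log2 unit between the means at an adjusted p under 0.05. A self-test ran the fits, without the dog block, on independent simulated normal values with a known shift in identifiers of low SD. The members are correlated and often near 0, so it does not cover them.

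Named members were the 2 with the smallest mean difference, the best correlated member of each lettered group and at most 2 called members per direction and comparison. The set of 3 abundant genes, the identifiers in no group and single tumors were named after their values were seen. The table of RefSeq genes used here matched 0 identifiers, so planned marker lists, gene roles and sequences were not used here. Alternatives were other pseudocounts, filters, centring of libraries, covariates and tumor sets.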

Additional observations from a re-analysis of the deposited data

Results flagged for a closer look

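In the 10 benign mixed tumors the score of group B had 1 tumor, at 0.93, set apart from the next, at 0.52, by 64.3% of the whole range. This gap passed Dixon's 95% limit for 10 values, and chance alone flags about 1 in 20 groups of which 4 were examined. All 10 values lie close to 0.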

How the results depend on the processing

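Of 99 summary values recomputed under an alternative, 75 stayed within 1.5 times the reported count, 14 were weaker and 10 stronger. The 75 include counts of 0 that stayed at 0, many in comparisons where 0% of all identifiers were called. For those comparisons the 75 say little about stability. Paired analysis called 752 identifiers for tumor against normal, and 751 with no replicate block. A pseudocount of 0.1 called 1404 and an adjusted p alone 8152. Of the 100 members, 57 were chosen again by the median over dogs, 60 from the dogs of 2016 alone (an alternative added after the data were seen) and 93 without them (likewise added). The share of tumors keeping A went from 27.8% to 11.4% at the 25th percentile, 2.53% at the median and 94.3% at the lowest of the normals, and in the unpaired tumors from 27.7% to 12.8%, 1.06% and 93.6%. For B the share at or above the limit went from 42.4% to 24.7%, 3.16% and 94.9%, and in the unpaired tumors from 41.5% to 26.6%, 1.06% and 95.7%. With 29 of 64 normals below 1 in B, all these limits except the median lie under 1. The shares at those limits cannot be read as tumors expressing B, and 6 of 158 tumors stood above the gap in the normals. Called members went from 0 to 3 for malignant against benign over all 158 tumors. For grade they went from 3 to 0 with a mean FPKM of at least 5 or with no filter, and to 6 over all 158 tumors. For ER they went from 1 to 2 with a pseudocount of 0.1 or surgery year as a covariate, and to 0 with no filter or over all 158 tumors. Of the recomputed medians of A or B, 6 changed sign. Without the tumor library with the fewest identifiers above 0 (also added after the data were seen), no count of called members changed. The causes were not tested.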
